A study of Mus musculus with 2 samples.

Results

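Nkg7 lymphocytes were a set of 226 cells among 3173 cells of the mouse colon, profiled by single-cell RNA-seq. They were chosen by transcript counts, so the genes of the rule are a description and not a result. A cell was taken when its unique molecular identifiers (UMIs, 1 per captured transcript) of Nkg7, Xcl1, Ctsw, Cd7, Cd160 and Klra7 summed to 4 or more, with no UMI of the macrophage receptor gene Csf1r, fewer than 3 UMIs of the B cell genes Cd79a, Cd79b and Ms4a1, and fewer than 20 UMIs of the neutrophil genes S100a8 and S100a9. The cells came from bone marrow chimeras, in which CD45.1 recipient mice carried CD45.2 donor marrow. In the first group (IL-10R KO) the donor lacked the receptor for IL-10, and in the second (IL-10R/CerS2 DKO) it also lacked ceramide synthase 2, so the loss of the receptor was shared by both groups and the loss of Cers2, the enzyme of very long chain ceramide synthesis, set them apart. Each group was 1 library, so no difference between groups had a replicate, and genotype and library cannot be told apart. Both deletions were carried by all donor-derived blood cells and not only by lymphocytes, and recipient lymphocytes that outlive irradiation could also be present. Cells had been sorted for CD45.2, CD11b, CD11c and CD64, antigens of myeloid cells, and the labels call them colon macrophages, so the lymphocytes described here were not the population the sort was aimed at.

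Natural killer (NK) cells and cytotoxic T cells kill through granules that hold perforin and granzymes, and Nkg7 and Ctsw encode granule-associated proteins of such cells. The gut wall also holds unconventional T cells, among them intraepithelial lymphocytes with a γδ receptor or with an αβ receptor and the CD8αα homodimer. These cells share NK receptors, the CD7 and CD160 surface proteins and the chemokine gene Xcl1 with NK cells and innate lymphoid cells (ILCs), so the 6 genes of the rule do not tell them apart, and CD3, receptor constant region and coreceptor transcripts were read for that purpose.

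The promoters of 2 marker genes and 2 granzyme genes are shown first, because NK receptor and granule genes are known targets of RUNX, ETS and T-box factors in lymphocytes and because the levels of these genes carry the account that follows. Each line holds the 250 bases before the RefSeq gene start in the GRCm38.p6 build, 5′ to 3′ on the gene's own strand, with letters in capitals where a script found TGTGGT (RUNX core), AGGAAG (ETS) or GGTGTG (T-box) on either strand. The windows are chr1:164935523-164935772 (minus strand) for Xcl1, chr7:43436888-43437137 (plus strand) for Nkg7, chr13:113100982-113101231 (minus strand) for Gzma and chr14:56262335-56262584 (minus strand) for Gzmb.
Xcl1: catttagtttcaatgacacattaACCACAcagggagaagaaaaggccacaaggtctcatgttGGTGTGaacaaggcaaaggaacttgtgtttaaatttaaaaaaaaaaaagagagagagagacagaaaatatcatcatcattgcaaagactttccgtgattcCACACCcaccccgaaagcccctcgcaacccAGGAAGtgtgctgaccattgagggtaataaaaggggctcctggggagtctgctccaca
Nkg7: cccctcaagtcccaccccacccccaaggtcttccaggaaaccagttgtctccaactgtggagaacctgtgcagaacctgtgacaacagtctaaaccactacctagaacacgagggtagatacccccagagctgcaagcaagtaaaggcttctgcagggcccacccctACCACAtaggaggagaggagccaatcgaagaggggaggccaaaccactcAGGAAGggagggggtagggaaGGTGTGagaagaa
Gzma: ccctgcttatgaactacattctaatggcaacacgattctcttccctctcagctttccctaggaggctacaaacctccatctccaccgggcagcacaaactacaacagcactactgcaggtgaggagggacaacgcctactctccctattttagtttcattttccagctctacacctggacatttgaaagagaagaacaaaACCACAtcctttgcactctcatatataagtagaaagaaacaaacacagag
Gzmb: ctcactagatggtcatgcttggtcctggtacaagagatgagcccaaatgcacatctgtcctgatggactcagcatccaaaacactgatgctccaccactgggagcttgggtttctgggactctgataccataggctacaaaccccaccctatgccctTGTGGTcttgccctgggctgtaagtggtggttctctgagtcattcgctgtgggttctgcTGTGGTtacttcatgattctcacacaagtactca
The Xcl1 window held 1 RUNX, 1 ETS and 2 T-box matches, and the Nkg7 window held 1 of each. The Gzma window held 1 RUNX match and the Gzmb window held 2, with neither of the other motifs. Over 32851 RefSeq promoter windows, 14.0% held the RUNX letters, 29.5% the ETS letters and 16.3% the T-box letters, so each match alone is common.

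Cells were kept if they had between 300 and 5000 genes and no more than 10% of UMIs from mitochondrial genes. Of 2443 such IL-10R KO cells, 166 met the rule (6.79%, 95% exact interval 5.83 to 7.87). Of 730 IL-10R/CerS2 DKO cells, 60 met it (8.22%, 6.33 to 10.5), and the intervals of the 2 shares overlapped. These and all other intervals cover counting error only. The lymphocytes held a median of 4227 UMIs in the KO library and 3851.5 in the DKO library, and 876833 and 268580 UMIs in all, so 3 UMIs, the most that a count of 0 allows, stand for 3.42 and 11.2 counts in 1000000 (CPM). The marker sum had a median of 12 UMIs in the KO library and 10 in the DKO library. At the edge of the rule, 9 KO and 6 DKO cells had a sum of exactly 4, and 19 KO and 5 DKO cells fell just outside with a sum of 3. A further 6 KO cells and 1 DKO cell were left out for a Csf1r UMI, with medians of 10574.5 and 7848 UMIs. The libraries shared 1 cell barcode, which belonged to no Nkg7 lymphocyte.

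Nkg7 carried the rule. It was found in 155 of 166 KO cells and in 53 of 60 DKO cells, and its UMIs alone reached 4 in 108 and 27 of them. Ctsw, a cathepsin of cytotoxic lymphocytes, was found in 140 KO and 53 DKO cells. Cd7, a surface protein of T cells and NK cells, was found in 109 and 43. The other markers were held by smaller numbers of cells. Xcl1, a chemokine that draws cross-presenting dendritic cells, had a UMI in 61 KO cells (36.7%) and 19 DKO cells (31.7%). Cd160, a receptor of intraepithelial and NK cells, had one in 57 and 15, and Klra7, a Ly49 receptor for MHC class I, in 36 and 14. Only 4 KO cells and 1 DKO cell held all 6 marker genes, and the most frequent number was 3, in 59 KO and 23 DKO cells.

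**Figure D1:**
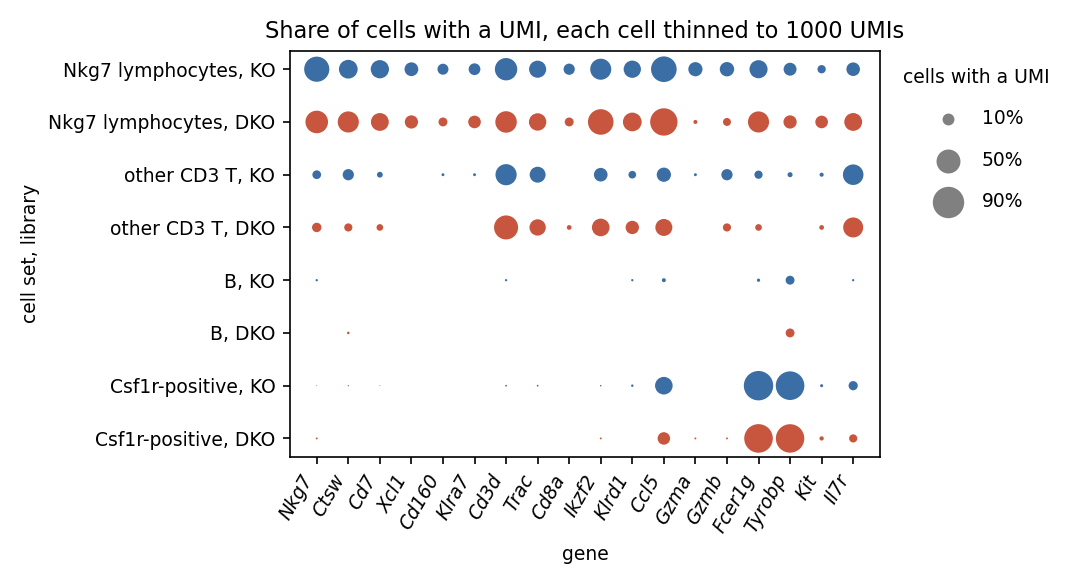
Dot area gives the percent of cells with at least 1 UMI of each gene (horizontal axis) in 4 cell sets of each library (vertical axis), after each cell was thinned to 1000 UMIs. Xcl1 was found in 19.9% of KO and 18.3% of DKO Nkg7 lymphocytes and in no B cell, Csf1r-positive cell or other T cell. Xcl1 is a gene of the rule, and other T cells had a marker sum too low to meet the rule. The absence of Xcl1 from other T cells therefore follows in part from how the sets were chosen. Gzma was found in 21.1% of KO and 1.67% of DKO Nkg7 lymphocytes.

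Most Nkg7 lymphocytes were T cells by their transcripts. A sum of 2 or more UMIs of Cd3d, Cd3e and Cd3g, the invariant chains of the T cell receptor complex, was found in 154 of 166 KO and 51 of 60 DKO cells. The largest class had CD3 and a UMI of Trac, the αβ receptor constant region, without Trdc, the δ chain constant region. It held 115 KO cells (69.3%, 61.7 to 76.2) and 40 DKO cells (66.7%, 53.3 to 78.3). A UMI of Trbc1 or Trbc2, the β chain constant regions, was present in 112 of the 115 and in all 40. CD3 without Trac or Trdc was found in 32 KO and 10 DKO cells, CD3 with Trdc and no Trac in 3 and 1, and CD3 with both in 4 and 0. Every class is a reading of UMIs per cell at this depth, so a cell without a Trac or Trdc UMI is not shown to lack the chain.

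The δ chain was rare. Trdc had 24 UMIs from 7 KO cells and 4 from 2 DKO cells, so cells with a Trdc UMI were few in either library. The γ chain constant genes were more widespread and did not mark γδ cells: Tcrg-C1, Tcrg-C2, Tcrg-C3 or Tcrg-C4 had a UMI in 56 of the 115 αβ class cells of the KO library and in 10 of the 40 of the DKO library. Tcrg-C2, listed among the markers of these cells but not part of the rule, was found in 51 KO cells (108 CPM) and 7 DKO cells (55.8 CPM). The Tcrg-C1 and Tcrg-C2 transcripts share an identical run of 104 bases within the 500 bases at their 3′ ends, so counts of the single γ genes are uncertain, while a run of 9 bases is the longest that Tcrg-C4 shares with either there.

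**Figure D2:**
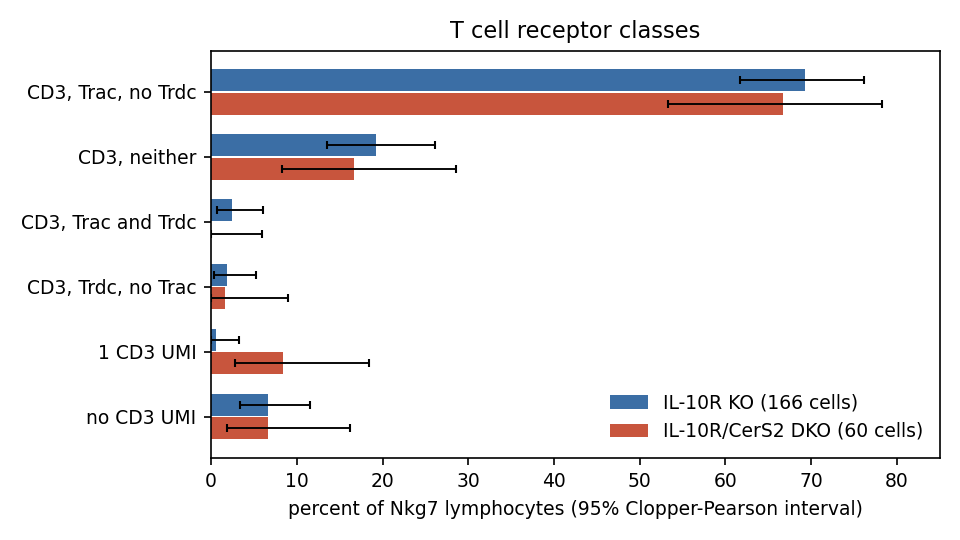
Bars give the percent of Nkg7 lymphocytes in each receptor class (vertical axis) for 166 IL-10R KO cells and 60 IL-10R/CerS2 DKO cells, with 95% exact intervals. The class with CD3 and Trac but no Trdc held 69.3% and 66.7%, and the class with CD3 and Trdc but no Trac held 1.81% and 1.67%.

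A small remainder had no CD3 UMI, 11 KO cells (6.63%) and 4 DKO cells (6.67%). Only markers of NK cells and ILCs were compared here, and those of NK cells (Ncr1, Klrb1c or Eomes) were the only ones in 5 and 4 of these. Of the 5 KO cells, 1 also held 126 UMIs of Cd74, 75 of H2-Ab1 and 33 of Lyz2, genes of the monocyte and macrophage list. Gata3, Il1rl1, Il13 or Il5, genes of type 2 ILCs, were the only ones in 2 KO cells, of which 1 had Gata3 beside receptor chain UMIs and 1 had Il1rl1 beside mast cell RNA. A further KO cell had markers of several kinds and 3 had none. In 2 of the 11 KO cells the leading RNA was of mast cell proteases, with 1395 UMIs of Mcpt1, Mcpt2, Mcpt8 and Cpa3 together. Neither had an Nkg7 UMI, and they met the rule through Cd7 with 4 and 7 UMIs. The other 9 KO cells and all 4 DKO cells had Nkg7 together with Fcer1g and Tyrobp, which encode signalling adaptors of NK receptors. Xcl1 was found in 6 of the 9 and in all 4, and Gzma in 6 of the 9 and in 1 of the 4. A β chain UMI was found in 8 of the 9 and in all 4.

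Coreceptor transcripts divided the CD3-positive cells further. Of 154 KO cells, 36 (23.4%) had Cd8a without Cd8b1, 27 (17.5%) had both, 4 had Cd8b1 alone and 12 (7.79%) had Cd4 alone. The largest share, 75 of 154 (48.7%, 40.6 to 56.9), had none of the 3 genes. Of 51 DKO cells, 8 (15.7%) had Cd8a without Cd8b1, 1 had both, 3 had Cd8b1 alone and 2 had Cd4 alone, and 37 (72.5%, 58.3 to 84.1) had none. These shares were not thinned, at median depths of 4272 and 3924 UMIs per CD3-positive cell. Among all Nkg7 lymphocytes before thinning, Cd8a was found in 38.0% of KO cells (interval 30.5 to 45.8) and 15% of DKO cells (interval 7.10 to 26.6). These intervals did not overlap, while those of Cd8b1 did. After thinning to 1000 UMIs, Cd8a was left in 13.3% of KO cells (interval 8.50 to 19.4) and 8.33% of DKO cells (interval 2.76 to 18.4). The thinned intervals overlapped, as did those of Cd8b1. Thinning discards most UMIs at these depths and widens the intervals relative to the shares, so this overlap does not show that depth made the difference. Among other CD3-positive cells, which had fewer than 4 marker UMIs, Cd4 alone was found in 41 of 114 KO cells and 7 of 43 DKO cells, and Cd8a in 0 of 114 and 1 of 43.

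The 12 KO cells with Cd4 had RNA of activated helper or regulatory T cells. Ctla4, an inhibitory receptor, was found in 11 of the 12 and Tnfrsf4, a costimulatory receptor, in 10, against 39 and 4 of the 67 cells with Cd8a or Cd8b1. Over all Nkg7 lymphocytes, Foxp3, the factor of regulatory T cells, had 14 UMIs in 5 KO cells and none in the DKO cells. Whether these 5 were among the 12 cells with Cd4 was not examined. Cells with neither coreceptor most often held Ikzf2, in 62 of 75 KO and 36 of 37 DKO cells, and Fcer1g, in 51 and 34. Itgae, the αE integrin that binds E-cadherin on epithelium, was found in 27 of 67 KO cells with Cd8a or Cd8b1 and in 11 of the 75 without a coreceptor.

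The label of cytotoxic innate-like lymphocytes therefore held in part. Genes expressed by unconventional T cells and NK cells led the set outside the rule. Among genes with 100 or more UMIs and found in at least 25% of the cells of each library, the 20 highest over all other cells included Ikzf2, Sla2, Spry2, Gm19585, Trbc1, Klrd1, Ctla2a, Sh2d2a, Cd3e, Cd3d, Cd3g, Trbc2, Skap1, Il2rb, Trac, Gimap5, Tcf7, Sytl3 and Txk. Ikzf2 encodes Helios, Klrd1 the CD94 chain of NK receptors, Il2rb the receptor chain shared by IL-2 and IL-15, and Txk a kinase of T cell receptor signalling. Ikzf2 stood at 1050.4 CPM in KO cells and 1631 CPM in DKO cells, against 15.1 and 50.1 CPM over all other cells of each library. Many of those were myeloid cells, and other CD3-positive cells held Ikzf2 as well. It had a UMI in 37 of 114 of them in the KO library and 16 of 43 in the DKO library, against 116 of 166 and 53 of 60 Nkg7 lymphocytes. Granzymes were held by a minority. Gzma was found in 45 of 166 KO cells and 1 of 60 DKO cells, Gzmb in 50 and 9, and Prf1, which encodes perforin, in 13 and 1. The granule proteoglycan gene Srgn, used by many leukocytes, was found in 166 of 166 and 58 of 60.

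Set beside the other CD3-positive cells of the same library, 43 of 2745 genes were at least 2-fold higher in Nkg7 lymphocytes of both libraries (1.57%) and 39 were at least 2-fold lower (1.42%). The rule used this contrast, so these values are a description. Klrd1 stood at 484 CPM against 75.4 in the KO library and 737 against 223 in the DKO library. Ccl5, a chemokine of memory and cytotoxic T cells, stood at 6887 against 867 CPM and 4769.5 against 1347 CPM. Kit, the stem cell factor receptor, stood at 136 against 15.9 CPM and 219.7 against 39.4 CPM, and the 2 KO cells with mast cell proteases held 43 of its 119 KO UMIs. Among CD3-positive Nkg7 lymphocytes Kit stood at 87.7 CPM in the KO library and 202 CPM in the DKO library. Lower genes included Icos at 185 against 841 CPM and 130.3 against 651 CPM, Tnfrsf4 at 188 against 1016 CPM and 112 against 539 CPM, and Rora at 159 against 464 CPM and 85.6 against 381 CPM. All 4 tested genes of the CD4 T cell list (Icos, Ctla4, Tnfrsf4 and Cd40lg) were lower in both libraries, and Il17a, the cytokine of type 17 cells, stood at 34.2 against 667 CPM in the KO library and at 0 against 26.3 CPM in the DKO library.

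A UMI of Fcer1g, the γ chain that signals for Fc and NK receptors, divided the set further. The split was chosen after its values were seen, and it is given as a description. Fcer1g was found in 94 KO cells (56.6%, 48.7 to 64.3) and 48 DKO cells (80.0%, 67.7 to 89.2), in 4.97% and 2.76% of B cells, in 13 of 114 and 6 of 43 other CD3-positive cells and in 96.4% and 94.7% of Csf1r-positive cells. Trac was about as frequent on both sides in the KO library, in 68 of 94 cells with Fcer1g and 54 of 72 without, so cells with Fcer1g were for the most part T cells as well. Among Cd8a and Cd8b1 UMIs of KO cells, Cd8b1 made up 17 of 84 (20.2%, 12.3 to 30.4) in cells with Fcer1g and 108 of 224 (48.2%, 41.5 to 55.0) in cells without. In DKO cells it made up 0 of 12 and 10 of 13.

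Receptor and signalling genes followed the split. Klra7 was found in 34 of 94 KO cells with Fcer1g and 2 of 72 without, and in 14 of 48 and 0 of 12 DKO cells. Tyrobp was found in 46 of 94 and 5 of 72 KO cells, and the kinase gene Lyn in 38 and 5. Ikzf2 was found in 83 of 94 KO cells with Fcer1g and 33 of 72 without, and in 45 of 48 and 8 of 12 DKO cells. Kit was found in 28 of 94 and 4 of 72 KO cells and in 21 of 48 and 3 of 12 DKO cells. All 7 KO cells and both DKO cells with a Trdc UMI had Fcer1g. Genes of conventional activated T cells lay on the other side, with Tnfrsf4 in 1 of 94 KO cells with Fcer1g and 23 of 72 without, Cd4 in 1 and 11, and Icos in 27 and 44. Gzma crossed the split, in 22 of 94 KO cells with Fcer1g and 23 of 72 without.

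When CD3-positive cells were divided by an Fcer1g UMI after thinning to 1000 UMIs, the KO contrasts of Klra7, Tyrobp, Lyn, Ikzf2, Kit, Cd8b1, Tnfrsf4, Cd4 and Icos kept their direction, with Klra7 in 21 of 47 cells with Fcer1g and 11 of 107 without, and Cd8b1 in 2 and 29. In the DKO library the Kit contrast did not, with 9 of 24 cells with Fcer1g and 13 of 27 without. Macrophage RNA also contains Fcer1g and Tyrobp. In KO Nkg7 lymphocytes 12 of 14 monocyte and macrophage genes had a UMI, with 945 UMIs in all, of which 5 cells held 83.8%, and 89 of 166 cells had none. In DKO cells 9 of the 14 genes had a UMI, with 35 UMIs in all, and 43 of 60 cells had none. Csf1r was 0 by the rule. Apoe was found in 9 of 94 KO cells with Fcer1g and 8 of 72 without, and Lyz2 in 4 and 1. Klra7, a gene of the rule, was found in 0 of 181 B cells and 0 of 1282 Csf1r-positive cells of the KO library. Whether macrophage RNA added to the Fcer1g UMIs of Nkg7 lymphocytes was not tested.

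**Figure D3:**
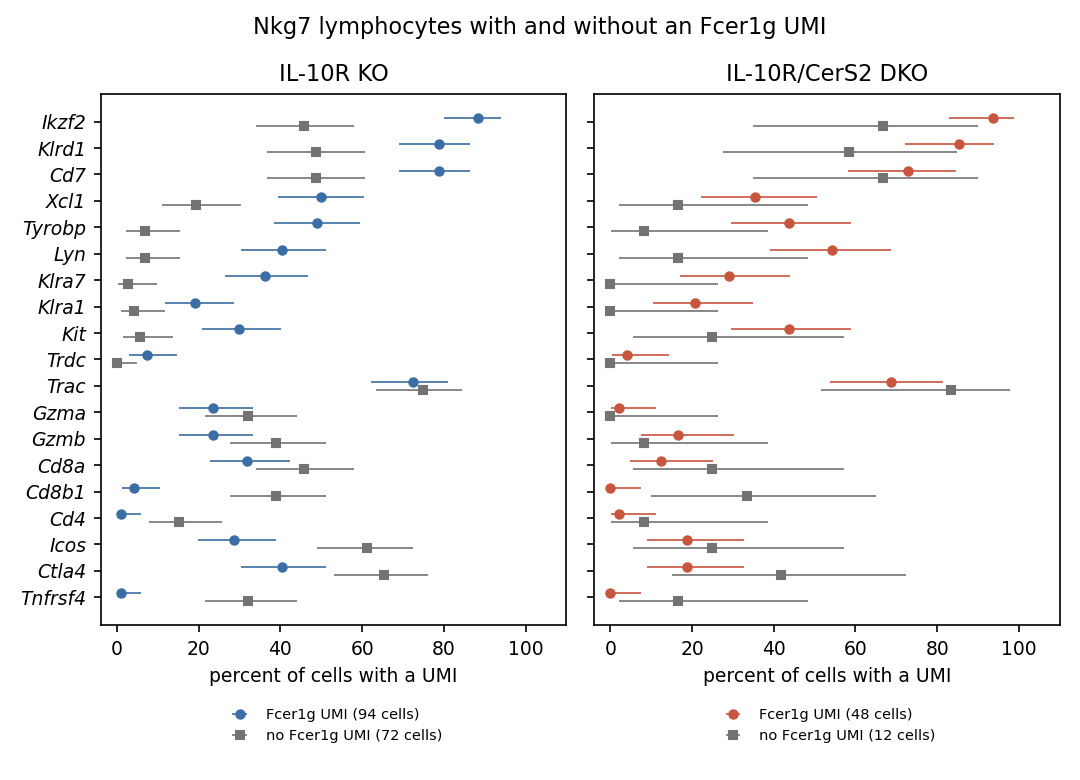
Points give the percent of Nkg7 lymphocytes with a UMI of each gene (vertical axis) among cells with an Fcer1g UMI (circles) and without one (squares), with 95% exact intervals, in the IL-10R KO library (94 and 72 cells) and the IL-10R/CerS2 DKO library (48 and 12 cells). In the KO library Klra7, Kit, Tyrobp, Lyn and Ikzf2 were more frequent with Fcer1g and Cd8b1, Cd4, Icos and Tnfrsf4 less frequent. The DKO shares had the same order, but among these genes only the Cd8b1 intervals did not overlap there. The DKO order of Kit turned when cells were divided after thinning.

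The comparison of DKO with KO cells asked how these lymphocytes differed when the marrow also lacked Cers2. Cers2 itself was checked first. It had 37 UMIs from 28 of 166 KO cells and none from 60 DKO cells, at least 3.78-fold lower against the limit of 3 counts. Il10rb, which encodes the deleted receptor chain, had 11 UMIs in KO cells and 0 in DKO cells, too few to compare, and 3′ reads can lie outside the deleted part. Of 5513 genes with 20 or more UMIs over both libraries, 217 were at least 2-fold higher in DKO cells (3.94%) and 562 at least 2-fold lower (10.2%), with a median log2 ratio of -0.07 and with 0.5 counts added to each sum. The counting interval lay wholly on 1 side of no change for 137 of the higher and 335 of the lower genes. With 1 library on each side there is no test, and these counts describe 2 libraries. The 2 shares, 3.94% and 10.2%, are the background for the list counts below. The mix of cells also differed. The largest cluster of Nkg7 lymphocytes held 69 KO and 48 DKO cells, and the next largest 42 and 4. How much of each difference follows from this mix was not tested.

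**Figure D4:**
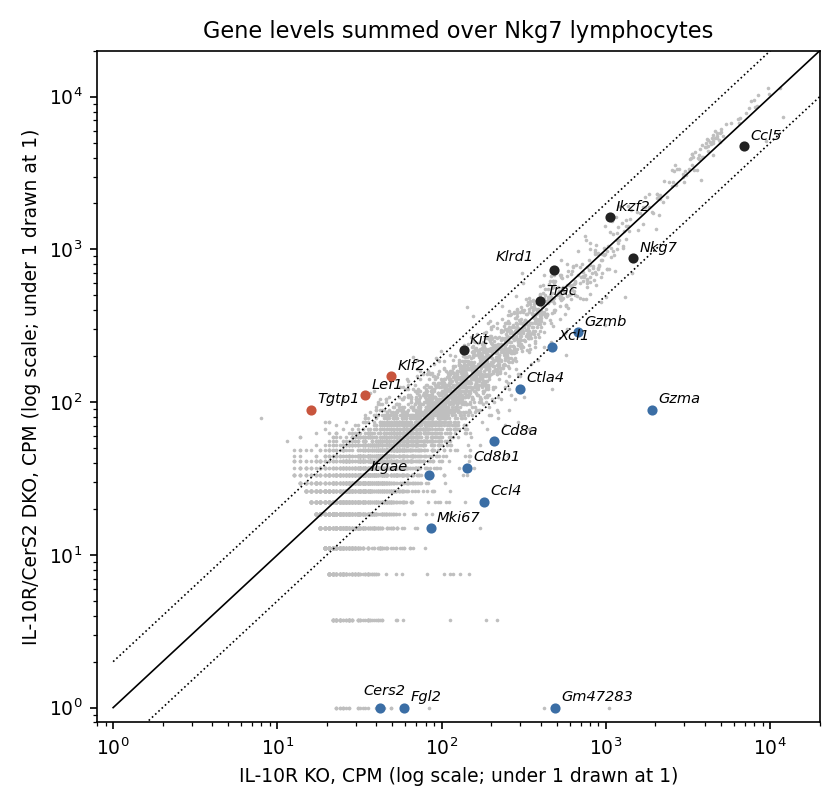
Each point is 1 of 5513 genes, with its CPM summed over IL-10R KO Nkg7 lymphocytes (horizontal axis, log scale) and over IL-10R/CerS2 DKO Nkg7 lymphocytes (vertical axis, log scale). The solid line marks equal levels and the dotted lines 2-fold differences, values under 1 CPM are drawn at 1, and named genes at least 2-fold higher in DKO cells are red, at least 2-fold lower blue and others black. Gzma stood at 1898 CPM in KO cells and 89.4 CPM in DKO cells.

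Granzyme genes were lower in DKO cells. Of 10 tested genes of the cytotoxic granule list, 4 were at least 2-fold lower in DKO cells and none higher, with a median log2 ratio of -0.68. Over all tested genes 10.2% were lower and 3.94% higher, with a median of -0.07. Gzma, granzyme A, had 1664 UMIs from 45 of 166 KO cells (1898 CPM) against 24 UMIs from 1 of 60 DKO cells (89.4 CPM), a log2 ratio of -4.38 (-5.05 to -3.83). The highest KO cell held 15.5% of the Gzma UMIs. After thinning to 1000 UMIs, a Gzma UMI was left in 21.1% of KO cells (interval 15.1 to 28.1) and in 1.67% of DKO cells (interval 0.0422 to 8.94), and in no B cell of either library. Among CD3-positive cells, Gzma was found in 38 of 154 KO cells and in 0 of 51 DKO cells, which allows a share of cells with a UMI of up to 5.88% at a floor of 3 counts. The 1 DKO cell with Gzma had no CD3 UMI, had Eomes, Klrb1c and 1 Trdc UMI, and also held 51 of the 77 Gzmb UMIs and all 5 Prf1 UMIs of the DKO cells.

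Gzmb, granzyme B, had 593 UMIs from 50 KO cells (676 CPM) against 77 UMIs from 9 DKO cells (287 CPM), a log2 ratio of -1.23 (-1.60 to -0.89). Among CD3-positive cells only, the ratio was -2.44. Fasl, the ligand of the death receptor Fas, was found in 38 KO and 5 DKO cells, at a log2 ratio of -1.55 (-3.35 to -0.36). Other granule genes differed less. Ctsw stood at 458 CPM in KO cells and 618 CPM in DKO cells, Srgn at 2132 and 2282 CPM, and Serpinb9, an inhibitor of granzyme B, at 220.1 and 171 CPM. Nkg7 stood at 1470.1 and 879 CPM, a log2 ratio of -0.74. Ctsw and Nkg7 are genes of the rule, so their levels depend on how the cells were chosen. The cells with Gzma in the KO library were of several kinds, 22 of 67 with Cd8a or Cd8b1, 13 of 75 with no coreceptor and 3 of 12 with Cd4.

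Most chemokine and cytokine genes had a lower summed level in DKO cells, and single KO cells with many UMIs carried part of this. Of 3 tested chemokine genes 2 were at least 2-fold lower, Xcl1 and Ccl4, and none higher, against 10.2% lower over all tested genes. Xcl1 is a gene of the rule, so its level depends on how the cells were chosen. Xcl1 stood at 469.9 CPM in the KO and 231 CPM in the DKO lymphocytes, and its log2 ratio was -1.02 (-1.43 to -0.64), with 75 UMIs in the highest KO cell and 10 in the highest DKO cell. When each cell was limited to 5 UMIs of a gene the Xcl1 ratio was 0.00, and the thinned share was 19.9% of KO cells and 18.3% of DKO cells. Ccl5 stood at 6887 and 4769.5 CPM, a log2 ratio of -0.53, which turned to 0.32 under the same limit, and the thinned share with a Ccl5 UMI was 68.7% in KO and 78.3% in DKO cells. No order of Ccl5 between the libraries is read from these values. Ccl4, a macrophage inflammatory protein, had 158 UMIs from 20 KO cells against 6 from 1 DKO cell, a log2 ratio of -2.90. Of the KO UMIs, 5 cells held 82.3%. The thinned share was 5.42% of KO cells (interval 2.51 to 10.0) and 1.67% of DKO cells (interval 0.0422 to 8.94), and these intervals overlapped. Ifng, interferon-γ, had 92 UMIs from 33 KO cells against 8 from 6 DKO cells, with a log2 ratio of -1.74 (-3.07 to -0.78). Il17a had 30 UMIs in 7 KO cells and none in DKO cells, at least 3.06-fold lower. Of 7 tested genes of the cytokine list, 4 were at least 2-fold lower in DKO cells and 1, Csf2, was higher through a single DKO cell.

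**Figure D5:**
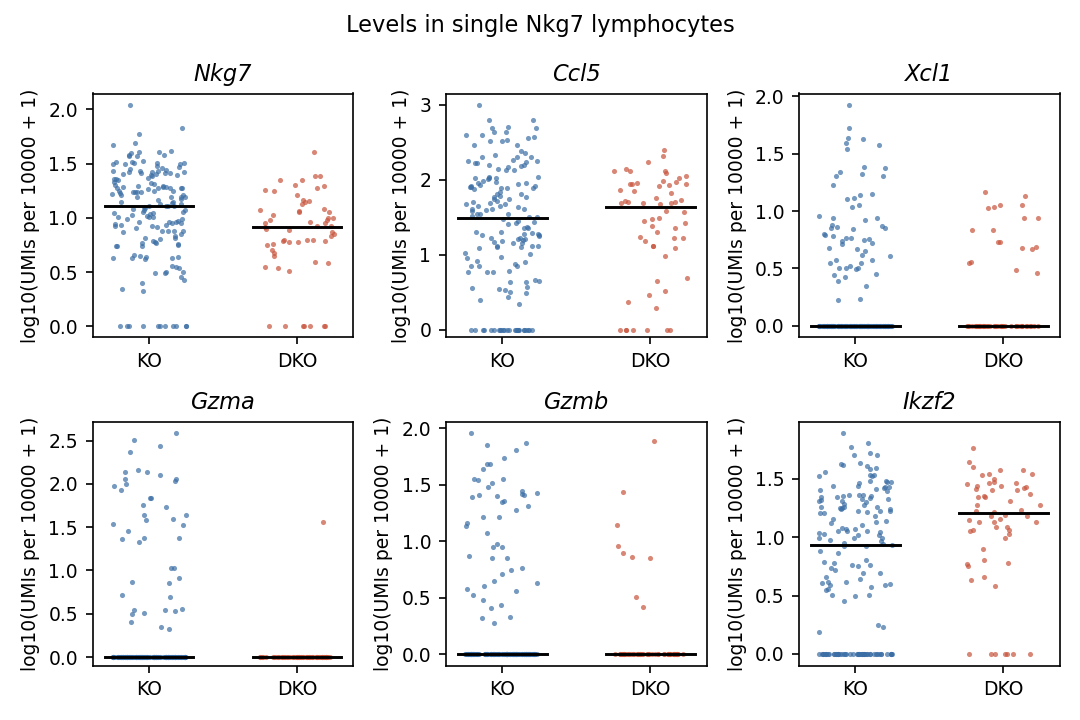
Each point is 1 Nkg7 lymphocyte, with the gene's share of the cell's UMIs, scaled as on the axis, on a log10 scale after adding 1 (vertical axis), for IL-10R KO (166 cells) and IL-10R/CerS2 DKO (60 cells), and horizontal bars mark medians. Gzma was above 0 in 45 KO cells and 1 DKO cell, Xcl1 reached higher in single KO cells, and the median of Ikzf2 was higher in DKO cells.

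Receptors of the NK gene complex did not move as a block. Of 7 tested genes of the NK cell list, 3 were at least 2-fold lower in DKO cells and none higher, against 10.2% lower and 3.94% higher over all tested genes. Klrc1, the NKG2A inhibitory receptor, stood at 151 CPM in KO cells and 59.6 CPM in DKO cells, and Klre1 at 177 and 74.5 CPM. Cd226, an activating receptor, stood at 52.5 and 11.2 CPM. Klrd1, the partner chain of NKG2A, went the other way at 484 and 737 CPM, a log2 ratio of 0.61 (0.36 to 0.86), and Klrk1, the NKG2D receptor, stood at 176 and 134 CPM. Among 6 tested Ly49 genes, 1 was at least 2-fold higher and 1 lower. Klra7, a gene of the rule, stood at 147 and 182 CPM and Klra1 at 68.4 and 96.8 CPM, while all 16 Klra4 UMIs of the DKO library lay in 1 cell. Klra4 and Klra7 transcripts share a run of 49 identical bases, so their counts are uncertain. The lists of ILC genes were thinly measured. Of 5 tested genes of type 1 ILCs and resident NK cells 2 were at least 2-fold lower in DKO cells, Tnfsf10 and Tbx21, with Cxcr6 at 140.3 and 70.7 CPM and Il7r, the IL-7 receptor, at 252 and 372 CPM. Of 2 tested type 2 ILC genes 1 was lower, Areg, through 46 UMIs in 10 KO cells, and of 2 tested type 3 ILC genes Il17a was lower while Kit stood at 136 and 219.7 CPM, a KO level that includes the cells with mast cell proteases.

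Genes of the receptor complex and of the natural intraepithelial programme were close in level for the most part. Trac stood at 399 CPM in KO cells and 458 CPM in DKO cells, Cd3d at 766 and 771 CPM and Cd3e at 405 and 309 CPM, and none of the 4 CD3 genes or 3 αβ receptor genes differed 2-fold. Cd8a had 183 UMIs from 63 KO cells against 15 from 9 DKO cells, with a log2 ratio of -1.86 (-2.77 to -1.14), and Cd8b1 had 125 UMIs in 32 cells and 10 in 4, a log2 ratio of -1.87 (-3.03 to -1.01). With Cd4, at 21.7 and 7.45 CPM, all 3 coreceptor genes were at least 2-fold lower in DKO cells. Of 5 tested γδ receptor genes 2 were at least 2-fold lower, Tcrg-C1 with 62 UMIs in 38 KO cells and 4 in 3 DKO cells and Tcrg-V1 with 28 in 13 and 3 in 3. Of 9 tested natural intraepithelial genes, 2 were at least 2-fold lower in DKO cells and none higher, against 10.2% lower and 3.94% higher over all tested genes. These were Cd160, at 141 and 63.3 CPM, and Itgae, at 83.2 and 33.5 CPM. Cd160 is a gene of the rule, so its level depends on how the cells were chosen. Itgae stood above 0, at a log2 ratio of 0.21, in cells without an Fcer1g UMI. Ikzf2 was higher in DKO cells by a log2 ratio of 0.64 (0.47 to 0.80), and after thinning an Ikzf2 UMI was left in 46.4% of KO cells (interval 38.6 to 54.3) and in 68.3% of DKO cells (interval 55.0 to 79.7), with intervals that did not overlap and with none in B cells. Fcer1g stood at 634 and 774 CPM, a log2 ratio of 0.29.

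Of 14 tested transcription factor genes, 2 were at least 2-fold higher in DKO cells and 3 lower, with a median log2 ratio of 0.05. Over all tested genes 3.94% were higher and 10.2% lower, so counts this small are not read as results about the list. Lef1, a factor of naive and memory-like T cells, had 30 UMIs from 17 KO cells (34.2 CPM) and as many from 19 DKO cells (112 CPM), a log2 ratio of 1.71 (0.93 to 2.49). Id3 was the other higher factor, with 11 UMIs in 8 KO cells and 13 in 5 DKO cells, and Tcf7, the partner of Lef1, stood at 79.8 and 130.3 CPM, while after thinning its UMIs were left in 13 of 166 KO and 3 of 60 DKO cells, so no order is read for it. Id2, an inhibitor of E proteins in effector and innate lymphocytes, stood at 263 and 112 CPM, a log2 ratio of -1.22 (-1.84 to -0.69). Tbx21, which encodes T-bet, had 35 UMIs in 29 KO cells and 4 in 3 DKO cells, and Prdm1, which encodes Blimp-1, had 24 UMIs in 19 KO cells and none in DKO cells. Runx3 stood at 306 and 272 CPM. Among 14 homing genes 2 were at least 2-fold higher and 2 lower, which is likewise not read as a result about the list. Klf2, which maintains the circulating state, stood at 49.0 and 149 CPM, a log2 ratio of 1.60 (0.94 to 2.26). Other CD3-positive cells moved the same way for several of these, with Lef1 at 79.4 and 177 CPM, Klf2 at 95.2 and 204 CPM and Id2 at 278 and 105 CPM in the KO and DKO libraries.

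Cell cycle genes were lower in DKO cells, and genes of activation were mixed. Of 8 cell cycle genes 6 were at least 2-fold lower and none higher, with a median log2 ratio of -1.80 against -0.07 over all tested genes. Mki67 had 75 UMIs from 16 KO cells against 4 from 1 DKO cell, and Top2a 125 UMIs in 25 cells and 9 in 3. Of the 16 KO cells with Mki67, 10 lay in a cluster of 11 KO cells and 1 DKO cell with a median of 10074.5 UMIs, where Mki67 stood at 454 CPM in KO cells, and the 1 DKO cell with Mki67 was its DKO member. The part of these few deep cells in the difference was not tested. Of 9 tested checkpoint and costimulation genes, 2 were lower and 1 was higher. Of 5 tested CD4 T cell genes 3 were lower, Cd4, Ctla4 and Cd40lg. Ctla4 stood at 299.9 and 123 CPM, Lag3 at 47.9 and 14.9 CPM and Pdcd1, which encodes PD-1, at 70.7 and 149 CPM in 29 KO and 9 DKO cells. Of 10 receptor signalling genes 1 was lower, Lat, the adaptor of the T cell receptor, at 301 and 149 CPM. That share is close to the 10.2% of all tested genes that were lower, so it is not read as a result about the list. Of 13 immediate early genes 3 were lower. Egr1 had 51 UMIs from 23 KO cells against 1 from 1 DKO cell, while Junb stood at 1331 and 1564 CPM and Nr4a1 at 172 and 101 CPM. The other lower ones were Fosb, at 106 and 44.7 CPM, and Hspa1a, which has a near-identical copy.

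Of 10 cytokine receptor genes none was at least 2-fold different in either direction. Over all tested genes 3.94% were higher and 10.2% lower, so with 10 genes this is not read as a result about the list. Il2rb stood at 344 CPM in KO cells and 276 CPM in DKO cells, and Ifngr1 at 992 and 1419 CPM. Of 14 tested sphingolipid genes only Cers2 was at least 2-fold lower, with a median log2 ratio of 0.11. The other ceramide synthase genes that were tested had wide intervals, Cers4 with 53 and 14 UMIs and a log2 ratio of -0.18 (-1.18 to 0.66), Cers5 with 28 and 6 UMIs and -0.43 (-2.08 to 0.78), and Cers6 with 21 and 8 UMIs and 0.37 (-1.07 to 1.55). Of 9 interferon-induced genes 1 was lower, Isg15 at 195 and 93.1 CPM, a share close to that over all tested genes, while Irf1 stood at 201 and 313 CPM.

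The genes at either end of the ratio were named by a fixed rule that asked for 10 or more cells and for no cell with over 25% of a gene's UMIs. Highest in DKO cells were Tgtp1, an interferon-induced GTPase gene, with 14 UMIs in 11 KO cells and 24 in 13 DKO cells and a log2 ratio of 2.46 (1.48 to 3.55), and Tsc22d1, with 18 in 13 and 30 in 13 and a log2 ratio of 2.43 (1.55 to 3.37). They were followed by Nsg2, Serp2, Bach2, Sidt1, Phactr4, Lef1, 2510002D24Rik and 1600002K03Rik, with log2 ratios from 2.27 down to 1.63. Bach2 restrains effector differentiation of T cells and had 18 UMIs in 16 KO cells and 20 in 16 DKO cells. The lowest were Gm47283, Fgl2, Ckb, Cers2, Gzma, Selenom, Ermn, Tmem135, Dnajb4 and Slc15a3. Fgl2, a secreted fibrinogen-like protein of T cells and myeloid cells, had 52 UMIs in 35 KO cells and none in DKO cells, at least 5.31-fold lower, and Ckb, creatine kinase B, had 50 in 33 and none, at least 5.11-fold lower. Gm47283 had 428 UMIs in 125 KO cells and none in DKO cells, at least 43.7-fold lower. It is annotated on chromosome Y of this build, in a region with near-identical copies elsewhere, and Xist, the transcript of the inactive X chromosome, was present in both libraries at 698 and 763 CPM. The Y-linked genes Ddx3y, Eif2s3y, Uty and Kdm5d had 0 UMIs in both, and whether the animals differed in strain at this locus was not tested. In both libraries the antigens of the sort were scarce in Nkg7 lymphocytes, with 0 UMIs of Fcgr1, which encodes CD64, 2 and 0 UMIs of Itgam, which encodes CD11b, and 26 and 2 UMIs of Itgax, which encodes CD11c, so that of 2 tested genes Itgax was lower in DKO cells, while Ptprc, which encodes CD45, stood at 651 and 599 CPM.

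Markers of other cell types moved with the comparison. All 6 tested monocyte and macrophage genes were at least 2-fold lower in DKO Nkg7 lymphocytes, with a summed level of 1078 CPM in KO cells and 130.3 CPM in DKO cells, and 3 KO cells held 555 UMIs of Cd74, H2-Aa, H2-Ab1 and H2-Eb1 together. The part of these cells in the other differences was not tested beyond leaving out cells with more than 1 UMI of 5 macrophage genes, after which the log2 ratios of Gzma, Cd8a and Ikzf2 were -4.38, -1.88 and 0.59. Of 1 tested B cell gene, Ighm, 13 UMIs in DKO cells and 19 in KO cells made it at least 2-fold higher in DKO cells. The B cell list held 42 UMIs over KO cells and 15 over DKO cells and the neutrophil list 4 and 3. None of the 6 dendritic cell genes or 8 epithelial genes reached 20 UMIs. Within cells with Cd8a or Cd8b1 only, where Gzma was found in 22 of 67 KO cells and in none of 12 DKO cells, which allows a share of cells with a UMI of up to 25% at the same floor, the log2 ratio of Gzmb was -4.02 and that of Ikzf2 was 0.91.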

How the data were processed

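The authors deposited, for 1 library per genotype, a 10x 3′ gene by cell matrix of UMI counts per gene, with no normalization, and no cell annotation was used. Per the labels the reads were aligned to mm10, and the submitters' processing notes name Cell Ranger 6.0.1 and Seurat 4.3.0. Cells with 300 to 5000 genes and at most 10% mt- UMIs were kept, as in the study's methods, and doublets were not removed. As an alternative, the cells with the highest 5% of Scrublet doublet scores were left out.

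Members, gene lists and tests were chosen with earlier results of these data known. UMIs were summed over members and divided by their total (CPM, scaled to 1000000). With 1 library per group no p-value was computed, and exact Poisson, conditional binomial and Clopper-Pearson intervals (95%) cover counting error only. Genes with 20 or more UMIs were compared, with 0.5 counts added, and a 2-fold difference was counted. The text could name genes of 31 lists (266 of 267 found in the files), the 10 highest and 10 lowest ratios with 10 or more cells and no cell over 25% of UMIs, and the 20 leading genes. Lyn and the mast cell protease genes were chosen after their values were seen. Shares were recomputed after thinning to 1000 UMIs. The ratio script was tested on simulated data. Clustering used scanpy 1.11.5 and TMM edgeR 4.0.16 in R 4.3.3. Gene positions came from GENCODE vM21 and promoters from RefSeq. Alternatives covered scaling, added counts, UMI minimums, the member rule, depth and the removal of cells with macrophage RNA, and 4 sets of them were added after the values were seen (cells with or without Fcer1g, cells with Cd8a or Cd8b1, and a limit of 5 UMIs per cell and gene). A few items are not reported here.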

Additional observations from a re-analysis of the deposited data

Results flagged for a closer look

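Ccl5 and Cd40lg were flagged because the ratio of DKO to KO had opposite signs in Nkg7 lymphocytes and in other CD3-positive cells of the same libraries. They were not the only genes with opposite signs. Nkg7, which was not flagged, had a log2 ratio of -0.74 in Nkg7 lymphocytes and 0.22 in other CD3-positive cells. Its interval in the other CD3-positive cells, -0.66 to 0.99, included no change. The difference between the cell sets was not tested, since each group is 1 library. Ccl5 had a log2 ratio of -0.53 in Nkg7 lymphocytes and 0.64 in other CD3-positive cells, where it stood at 867 CPM in the KO library and 1347 CPM in the DKO library. With at most 5 UMIs counted per cell its ratio in Nkg7 lymphocytes was 0.32, and after thinning 68.7% of KO and 78.3% of DKO Nkg7 lymphocytes had a Ccl5 UMI, so no order between the libraries is read. Cd40lg, the CD40 ligand of helper T cells, had a log2 ratio of -2.97 in Nkg7 lymphocytes, from 38 UMIs in 10 KO cells and 1 UMI in 1 DKO cell, and 1.09 in other CD3-positive cells.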

How the results depend on the processing

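The numbers of lymphocytes per library and the receptor class shares moved by less than the limits set for them (their counting interval for a share) under each alternative that was run. Of 5513 genes, 217 higher and 562 lower in DKO cells became 351 and 102 with 5 counts added, 449 and 998 with a minimum of 10 UMIs, 50 and 201 with 50 UMIs, and 1463 and 1875 with 1 UMI. Thinning to 1000 UMIs left 1643 genes, with 43 higher and 141 lower. Cells with an Fcer1g UMI gave 135 and 325. The share of called genes that were higher was 27.9%, 29.7% with TMM scaling, 35.5% without mitochondrial and ribosomal genes in the totals, and 77.5% with 5 counts added. Of 65 named genes at least 2-fold different, 63 stayed so with TMM scaling, 46 with 5 counts added and 13 of 20 testable ones after thinning. Among these 65, signs turned for Itgae (0.21 without Fcer1g), Fosb (0.024 with Cd8a or Cd8b1) and Xcl1 (0.0013 with at most 5 UMIs per cell). Ccl5, which was under 2-fold, turned from -0.53 to 0.32 with at most 5 UMIs per cell. Over other CD3-positive cells, 27 genes were higher with 5 counts added against 43. The number of clusters was 3 at resolution 0.3 and 8 at 1.0 against 5. The cause of these shifts was not tested, except that equal counts added to both sums raise low genes of the smaller DKO sum (median log2 ratio from -0.07 to 0.22) and UMI minimums change the genes compared. The 60 DKO cells limit what can be seen, since 3 counts there stand for 11.2 CPM. No paired analysis was possible because each genotype was 1 library.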

Other observations

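Clustering of the 226 Nkg7 lymphocytes on variable genes gave 5 groups of 36, 46, 117, 15 and 12 cells. The V, D and J segment genes of T cell receptors and immunoglobulins, mitochondrial genes and ribosomal protein genes were left out. Receptor constant region genes and NK receptor genes were not left out. The genes that led them describe the groups and are no result of a comparison, and no group was tested between libraries. The 5 groups were led by Penk, Tnfrsf4 and Il1r2, by Abcb1b, Dnajb1 and Ccl5, by mast cell proteases from 2 cells followed by Kit and Bend4, by Ccl6, Lyz2, Apoe and class II genes, and by histone genes with Pclaf and Birc5. The group led by histone genes had a median of 10074.5 UMIs, and the other groups had medians from 3585.5 to 4215.5. In the order given, the groups held 32, 42, 69, 12 and 11 KO cells and 4, 4, 48, 3 and 1 DKO cells. In the group of 117 cells, Ikzf2 stood at 1979 CPM in KO and 2004 CPM in DKO cells. Gzmb stood there at 312 and 54.0 CPM, from 6 of 69 KO and 5 of 48 DKO cells. Gzma stood at 744 and 0 CPM, from 6 and 0 cells. The other groups held few DKO cells, and Gzmb had no common order in them. It stood at 417 and 0 CPM in the group led by Penk and at 1172 and 1210 CPM in that led by Abcb1b. In the groups led by Ccl6 and by histone genes it stood at 392 and 3573 CPM and at 1291 and 0 CPM. The groups were made from these same cells, so these values are a description. No group was given a cell type name.

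Penk, which encodes the opioid precursor proenkephalin, had 103 UMIs in the first of these groups and a level of 0 CPM in all other Nkg7 lymphocytes. It was singled out after its values were seen.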
